A study of Mus musculus with 13 samples.

Results

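The Dlx genes are 6 homeobox genes of the mouse, Dlx1 to Dlx6, and were taken by name from the 21911 protein-coding genes of the GENCODE M21 annotation of mm10. They were described in listed ChIP-Seq peaks of H3K4me3 and H3K27me3 from neural stem cells (NSCs), oligodendrocyte precursor cells (OPCs) and newly formed oligodendrocytes (NFOs), and in listed OLIG2 peaks of OPCs and NFOs. NSCs were cultured cells from E14.5 embryonic cortex, of CD-1 mice per the growth protocol although the strain label reads C57BL/6. OPCs and NFOs were immunopanned from C57BL/6 brains at postnatal day 7, with anti-PDGFRα and anti-GalC antibodies respectively. All cells were untreated, and no transgene or deletion was named for any group. Each cell type had 1 library per target and no replicates, so no difference between cell types could be tested. The peak lists gave no read depth, so peaks that a shallower library would miss cannot be told apart from peaks that were absent. Fold enrichments are therefore set side by side and are not compared between cell types as amounts. The antibody label of all 6 histone libraries names the other mark than the title, and the titles were followed throughout.

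Dlx proteins bind DNA through a homeodomain that recognises TAATTA-like sequences. In the embryonic forebrain Dlx1, Dlx2, Dlx5 and Dlx6 are expressed in the ganglionic eminences, where they promote the formation and migration of GABAergic interneurons, while Dlx3 and Dlx4 are known mainly from ectodermal tissues such as skin, placenta and tooth. The genes stand in 3 convergent pairs, each pair with its regulatory DNA between and around the genes. Among them is the RNA gene Dlx6os1, also called Evf2, which crosses the enhancers of the Dlx5 and Dlx6 locus. H3K4me3 marks the start sites of active or poised genes, H3K27me3 is written by Polycomb repressive complex 2 and marks silenced developmental genes, and a promoter with both marks is called bivalent. OLIG2 is a bHLH factor of the oligodendrocyte lineage that binds E-boxes, written CANNTG.

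Dlx1 lay at chr2:71528113-71533981 on the plus strand and Dlx2 at chr2:71543408-71546754 on the minus strand, with 9426 bp between them. Dlx6 lay at chr6:6863334-6868568 on the plus strand and Dlx5 at chr6:6877805-6882085 on the minus strand, with 9236 bp between them. Dlx3 lay at chr11:95120119-95125296 on the plus strand and Dlx4 at chr11:95140447-95146263 on the minus strand, 15150 bp apart.

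The OLIG2 peaks at the Dlx loci were listed in NFOs and not in OPCs. Their sequences are shown because motifs and runs of A or T in them are described below. Each is the plus strand of GRCm38 (mm10) from 100 bases before to 100 bases after the summit, and capitals mark CANNTG. The names give the nearest Dlx gene and the window.
Dlx1, chr2:71526291-71526491: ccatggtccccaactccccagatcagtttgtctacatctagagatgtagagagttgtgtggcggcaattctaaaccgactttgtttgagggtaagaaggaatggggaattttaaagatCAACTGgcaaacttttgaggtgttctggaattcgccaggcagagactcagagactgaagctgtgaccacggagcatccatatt
Dlx3 distal, chr11:95102655-95102855: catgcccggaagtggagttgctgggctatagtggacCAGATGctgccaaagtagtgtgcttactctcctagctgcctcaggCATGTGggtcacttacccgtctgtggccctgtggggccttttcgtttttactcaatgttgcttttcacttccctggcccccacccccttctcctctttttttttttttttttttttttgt
Dlx3 proximal, chr11:95111938-95112138: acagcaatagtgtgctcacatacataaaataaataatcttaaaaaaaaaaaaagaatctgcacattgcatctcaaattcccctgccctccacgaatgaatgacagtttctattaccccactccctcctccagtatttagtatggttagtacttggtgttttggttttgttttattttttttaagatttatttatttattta
Dlx6 distal, chr6:6856536-6856736: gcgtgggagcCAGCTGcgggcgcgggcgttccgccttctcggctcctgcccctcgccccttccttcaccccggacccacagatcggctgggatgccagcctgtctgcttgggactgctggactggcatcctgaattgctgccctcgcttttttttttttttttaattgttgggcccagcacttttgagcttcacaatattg
Dlx6 proximal, chr6:6859708-6859908: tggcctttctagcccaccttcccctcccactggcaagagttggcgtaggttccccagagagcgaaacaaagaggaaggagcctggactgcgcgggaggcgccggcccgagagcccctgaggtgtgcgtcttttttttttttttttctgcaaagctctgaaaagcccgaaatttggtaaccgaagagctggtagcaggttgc

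Further stretches of the plus strand show narrow H3K4me3 peaks, with runs of at least 10 A or 10 T in capitals. The former ends at the end of the NFO peak in the intron of Dlx5, and the latter is the whole NSC peak beside the start of Dlx6os1.
Dlx5 intron, chr6:6880314-6880613: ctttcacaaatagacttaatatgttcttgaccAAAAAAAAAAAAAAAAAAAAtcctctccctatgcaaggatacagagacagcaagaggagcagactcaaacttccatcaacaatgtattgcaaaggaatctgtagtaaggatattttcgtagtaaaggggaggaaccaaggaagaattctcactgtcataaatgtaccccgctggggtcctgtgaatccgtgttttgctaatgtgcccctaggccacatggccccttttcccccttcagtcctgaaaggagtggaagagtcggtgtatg
Dlx6os1 start, chr6:6871641-6871936: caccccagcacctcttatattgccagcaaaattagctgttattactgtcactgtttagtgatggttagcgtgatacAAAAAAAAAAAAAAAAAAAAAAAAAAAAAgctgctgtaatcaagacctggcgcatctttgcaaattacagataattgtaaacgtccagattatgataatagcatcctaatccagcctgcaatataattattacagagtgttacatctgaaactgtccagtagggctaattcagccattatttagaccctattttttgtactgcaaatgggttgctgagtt

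RefSeq promoters were at hand for 2 of the 6 genes, Dlx1 and Dlx2. The 250 bases before the start of Dlx2 (GRCm38.p6, minus strand) are shown for their CpG dinucleotides, in capitals, since both histone marks are known to favour CpG-rich promoters.
Dlx2 promoter, chr2:71546755-71547004: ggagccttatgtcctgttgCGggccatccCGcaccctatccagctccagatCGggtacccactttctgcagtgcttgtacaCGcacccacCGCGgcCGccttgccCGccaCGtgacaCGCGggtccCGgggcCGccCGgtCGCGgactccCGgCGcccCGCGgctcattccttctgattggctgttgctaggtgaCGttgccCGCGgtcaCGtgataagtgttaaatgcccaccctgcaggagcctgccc
These bases held 24 CpGs, more than 88.0% of 32851 RefSeq promoters of the same length, whose median was 6. The Dlx1 promoter of the table, chr2:71529195-71529444 on the plus strand, held 22 CpGs, more than 85.2% of promoters. It lies inside the gene as GENCODE places it, downstream of the 5′ end at chr2:71528113. Distances and coverage given below for the 5′ end of Dlx1 use that GENCODE end. TAATTA stood in neither of the 2 promoters, and in 4.84% of all promoters.

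**Figure D1:**
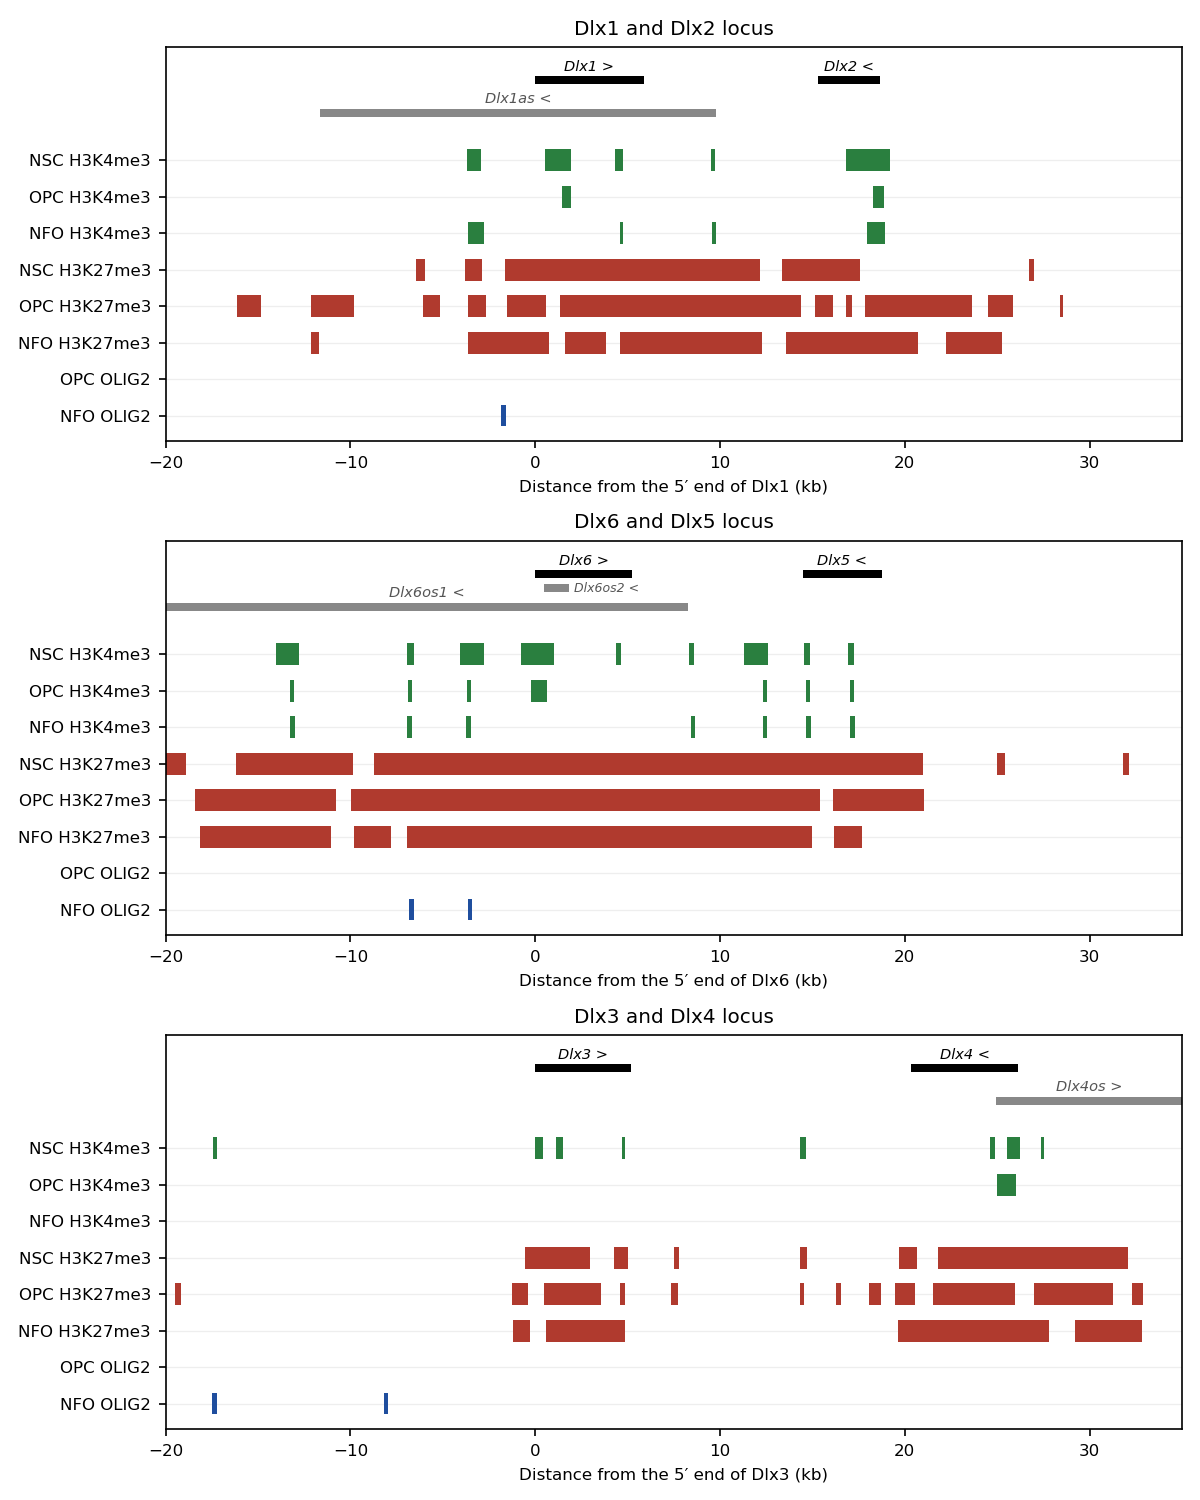
Listed peaks at the 3 Dlx loci, by distance in kb from the 5′ end of the plus-strand gene. Rows are the 8 libraries, black bars the Dlx genes, grey bars overlapping RNA genes, and > and < give the strand. H3K27me3 covers the Dlx6 and Dlx5 interval in all 3 cell types, whereas the DNA between Dlx3 and Dlx4 is mostly free of it. OLIG2 peaks appear in NFOs and not in OPCs, and NSCs had no OLIG2 library.

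All 6 Dlx genes had a listed H3K27me3 peak within 2 kb of a transcription start site (TSS) at every stage. The mark was listed there for 15.1% of all protein-coding genes in NSCs (exact binomial 95% interval 14.6 to 15.6, counting error only), 16.4% in OPCs and 9.58% in NFOs. At all 3 stages it was listed for 4.50% of genes. H3K4me3 was listed at 6 of the 6 genes in NSCs, at 5 in OPCs, and at 3 in NFOs, beside 64.3%, 60.8% and 43.6% of all genes. Dlx3 had no listed H3K4me3 peak in OPCs, and Dlx3, Dlx4 and Dlx6 had none in NFOs near a TSS.

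These counts took every listed peak. With the filter of the study, which keeps fold enrichments above 3.5 at an FDR below 0.05, H3K27me3 was listed at 5 of the 6 genes in NSCs, without Dlx2, and at 6 in OPCs and in NFOs. The shares of all genes were then 9.51%, 12.8% and 7.68%. H3K4me3 was listed at 6, 5 and 2 Dlx genes, beside 62.7%, 60.5% and 38.6% of all genes, and Dlx2 was the gene lost in NFOs. The H3K4me3 call of Dlx4 in NSCs then rested on a single narrow peak. It measured 162 bp (fold enrichment 4.04) and lay 1209 bp from the 5′ end, in an intron of Dlx4os.

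A bivalent Dlx gene, with listed peaks of both marks overlapping within 2 kb of a TSS, was found 6 times of 6 in NSCs, but 5 times in OPCs and 3 times in NFOs. The share of all genes so marked was 8.58%, 5.45% and 2.91%. The libraries came from populations of cells, so both marks on the same DNA and each mark in different cells cannot be told apart. Dlx1, Dlx2 and Dlx5 were bivalent in all 3 cell types, as were 1.48% of genes. Dlx3, Dlx4 and Dlx6 were bivalent in NSCs and had H3K27me3 without H3K4me3 within 2 kb of a TSS in NFOs, a course that 1.19% of genes took. Of the 1881 genes that were bivalent in NSCs, 260 took this course and 325 were bivalent in all 3 cell types. With the filter of the study, 5, 5 and 2 Dlx genes were bivalent, beside 5.17%, 4.43% and 2.32% of all genes.

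The definition of the study gave other genes. It merges overlapping peaks of both marks into a domain, and asks that such a domain and no peak of a single mark lie within 2 kb of a TSS, wherever in the domain the marks overlap. With all listed peaks, 6, 2 and 3 Dlx genes were bivalent by this definition, beside 5.30%, 2.99% and 1.57% of all genes. Those of OPCs were Dlx5 and Dlx6, and those of NFOs were Dlx2, Dlx5 and Dlx6. Dlx6 was thus bivalent in NFOs by this definition, through H3K4me3 peaks farther than 2 kb from its TSS, and Dlx1 was not.

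The H3K4me3 calls in NFOs, and with them the bivalent ones, rested on weak or narrow peaks, whereas no NFO H3K27me3 peak at the Dlx genes was below 300 bp. With peaks of at least 300 bp alone, a limit chosen after seeing the data, H3K4me3 was listed at 6, 4 and 1 of the Dlx genes in NSCs, OPCs and NFOs, and at 62.6%, 58.7% and 30.4% of all genes. The gene left in NFOs was Dlx2. H3K27me3 was then still listed at all 6 in each cell type, and at 12%, 11.1% and 7.64% of all genes. Bivalent genes numbered 6, 4 and 1, beside 5.95%, 3.55% and 1.11% of genes.

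The Dlx genes had H3K27me3 over much of the DNA about their 5′ ends. In the 2 kb on either side of the 5′ end of the gene, the 6 genes had a median of 95.4% of bases under a listed peak in NSCs. In OPCs this median was 76.8%, and it reached 84.8% in NFOs. The median of all genes was 0.0% in each. At least 50% of these bases were covered in 5, 6 and 5 Dlx genes, beside 1.62%, 2.15% and 1.77% of all genes. For H3K4me3 the medians of the Dlx genes were 31.4%, 12.9% and 0.0% along the lineage, and those of all genes 30.9%, 15.8% and 0.0%. In the extent of H3K4me3, then, the median of the family lay near that of the annotation in NSCs and OPCs, although single genes ran from 7.7% to 58.9% in NSCs. In NFOs both medians stood at the floor of 0.0%, and the Dlx genes ran from 0.0% to 25.2%.

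**Figure D2:**
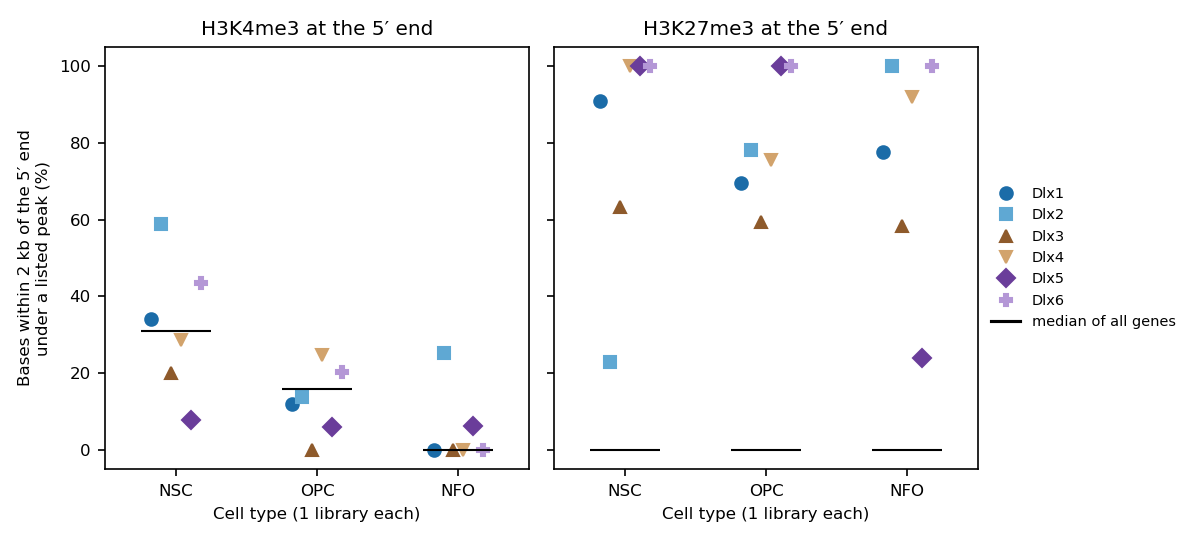
Bases within 2 kb of the 5′ end under a listed peak (%), for each Dlx gene in each cell type, with H3K4me3 on the left and H3K27me3 on the right. Points are genes, and the black lines are medians over 21911 genes. For H3K27me3 the Dlx genes lie at 22.8% or higher and the medians of all genes at 0.0%, whereas for H3K4me3 the genes lie on both sides of the median in NSCs and OPCs.

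Dlx1, which acts in the survival and maturation of interneurons, had a listed H3K4me3 peak of 1366 bp with a fold enrichment over control of 5.50 in NSCs and of 478 bp with a fold enrichment of 4.58 in OPCs. In NFOs the call came from a peak of 172 bp (fold enrichment 4.10) at chr2:71532678-71532849. That peak lay 4565 bp from the 5′ end, near the start of a shorter transcript, and none of the bases within 2 kb of the 5′ end were covered. H3K27me3 covered 90.8% of those bases in NSCs, compared with 69.6% in OPCs and 77.7% in NFOs.

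Dlx2, which acts with Dlx1 in interneuron progenitors, had the most extensive H3K4me3 of the family in NSCs and in NFOs. Its listed H3K4me3 peak at the start measured 2358 bp in NSCs (fold enrichment 6.24). The OPC peak measured 551 bp (4.79) and the NFO peak 1008 bp (3.46). The latter missed the fold enrichment above 3.5 that the study asked of histone peaks. H3K27me3 covered 22.8% of the bases about its 5′ end in NSCs, but 78.2% in OPCs and 100% in NFOs. Dlx2 was thus the lowest Dlx gene for H3K27me3 in NSCs and among the highest in NFOs. In NSCs the H3K27me3 peak of Dlx2 ended 1090 bp short of its 5′ end, on the gene side, and had a fold enrichment of 3.32.

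Dlx5, which acts downstream of Dlx1 and Dlx2, had no listed H3K4me3 peak at its own 5′ end in any cell type. The peak behind its calls lay in its intron, 1495, 1477 and 1472 bp from the 5′ end in the 3 stages. It measured 308, 243 and 252 bp, with fold enrichments of 4.66, 5.20 and 6.85. The Dlx5 intron sequence printed above shows 20 consecutive A in this stretch, which lay inside the NSC peak and at the edge of the OPC and NFO peaks. H3K27me3 covered 100% of the bases about the 5′ end of Dlx5 in NSCs and OPCs and 24.0% in NFOs, where the peak there measured 1549 bp with a fold enrichment of 8.17.

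Dlx6, the partner of Dlx5, had a listed H3K4me3 peak over its 5′ end of 1741 bp in NSCs (fold enrichment 5.72) and 816 bp in OPCs (4.35), and none within 2 kb of a TSS in NFOs. H3K27me3 covered 100% of the bases about its 5′ end in each of the 3 cell types, as for no other Dlx gene.

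Dlx3 had 2 H3K4me3 peaks near its TSS in NSCs, of 434 and 370 bp with fold enrichments of 3.92 and 3.89. H3K27me3 covered 63.2%, 59.5% and 58.4% of the bases about its 5′ end in NSCs, OPCs and NFOs. Dlx4 had an H3K4me3 peak over its 5′ end of 685 bp in NSCs (fold enrichment 3.42, below the limit of the study) and a peak of 989 bp in OPCs (4.57), which ended 141 bp from the 5′ end. H3K27me3 covered 100%, 75.5% and 92.0% of the bases about the 5′ end of Dlx4. The Dlx genes that are not known from forebrain interneurons thus had H3K27me3 in each cell type as well.

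The paired genes of the Dlx5 and Dlx6 locus shared a single H3K27me3 domain that also covered all the DNA between them. It measured 29715 bp in NSCs, the 14th widest of 36069 listed peaks, with a fold enrichment of 5.43. In OPCs it measured 25375 bp, the 11th widest of 29417 (fold enrichment 7.14), and in NFOs 21909 bp, the 14th widest of 12688 (fold enrichment 5.75). The NSC domain ran past both genes, whereas those of OPCs and NFOs ended inside Dlx5 and a second peak began in the same gene.

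At the Dlx1 and Dlx2 locus, H3K27me3 covered 87.3% of the bases between the genes in NSCs, against 92.0% in OPCs and 85.8% in NFOs. The widest H3K27me3 peak there measured 13801 bp, 13057 bp and 7682 bp, ranks 97, 75 and 203 of the lists. At the Dlx3 and Dlx4 locus, coverage between the genes was 8.44%, 15.7% and 4.47%, although the widest peak at Dlx4 still measured 10255, 4489 and 8173 bp. The 3 pairs thus differed in the DNA between the genes more than at the genes themselves.

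H3K4me3 took up little of the DNA between paired genes. Between Dlx6 and Dlx5 it covered 17.5%, 2.31% and 4.81% of bases in the order of the lineage, and no more than 2.29% in any cell type between the other pairs. A peak of 1321 bp between Dlx6 and Dlx5 in NSCs (fold enrichment 7.22) overlapped one of 213 bp in OPCs (6.73) and one of 220 bp in NFOs (6.08).

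**Figure D3:**
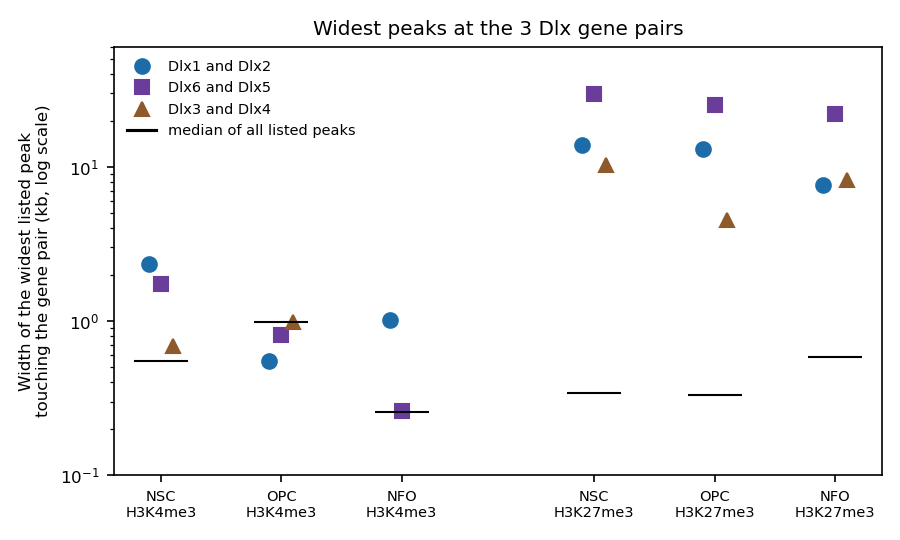
Width in kb (log scale) of the widest listed peak that touches each gene pair, by cell type, for H3K4me3 and H3K27me3, with black lines at the median width of all peaks in the list. The H3K27me3 peaks of Dlx6 and Dlx5 measure 21909 to 29715 bp and lie above those of the other pairs, and no H3K4me3 peak touched Dlx3 or Dlx4 in NFOs.

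RNA genes overlapped 3 of the Dlx genes. Dlx1as runs antisense to Dlx1 from chr2:71537891, Dlx6os1 antisense to Dlx6 from chr6:6871592, Dlx6os2 lies within Dlx6, and Dlx4os runs antisense to Dlx4 from chr11:95145052. H3K27me3 covered 100% of the 2 kb on either side of the 5′ ends of all 4 RNA genes in NSCs and NFOs and of 3 in OPCs, where Dlx4os had 76.4%. A listed H3K4me3 peak lay near the 5′ end of Dlx1as in NSCs (216 bp, fold enrichment 8.86) and NFOs (181 bp, 4.11) and not in OPCs. For Dlx6os1 such a peak was listed in NSCs (296 bp, fold enrichment 8.03) and NFOs (224 bp, 4.79) and again not in OPCs. The sequence of the Dlx6os1 start printed above holds 29 consecutive A. ChIP-Seq peaks carry no strand, so at Dlx6os2 and Dlx4os, whose starts lie close to those of Dlx6 and Dlx4, the genes cannot be told apart.

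OLIG2 was listed within 50 kb of the Dlx genes in NFOs and not in OPCs. No OLIG2 library of NSCs was among the samples, although the paper reports OLIG2 peaks in NSCs. In OPCs 0 of the 6 genes had an OLIG2 peak in the gene or within 50 kb, a distance at which 42.4% of all genes had one. In NFOs all 6 had one, beside 65.1% of all genes, and 31.3% of genes had a peak in NFOs and none in OPCs. The 2 lists differed in length, with 7384 peaks in OPCs and 16911 in NFOs. The paired genes shared their peaks, so that the 6 genes rested on 5 peaks, and none lay inside a Dlx gene.

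The OLIG2 peak of the Dlx1 and Dlx2 locus, chr2:71526273-71526508, lay 1605 bp from the 5′ end of Dlx1 in an intron of Dlx1as and had a fold enrichment of 6.86. It was the only OLIG2 peak within 2 kb of a Dlx TSS of GENCODE, where 9.71% of all genes had one in NFOs and 6.14% in OPCs. The RefSeq promoter of Dlx1 lay more than 2 kb from this peak. At the Dlx6 locus both peaks lay in an intron of Dlx6os1. The distal peak, chr6:6856518-6856753, lay 6581 bp upstream of Dlx6 with a fold enrichment of 13.35, the highest of the 5. The proximal peak, chr6:6859690-6859925, lay 3409 bp upstream with a fold enrichment of 6.26. At the Dlx3 locus the peaks chr11:95102637-95102872 (fold enrichment 9.66) and chr11:95111920-95112155 (7.57) lay 17247 and 7964 bp upstream of Dlx3 in intergenic DNA.

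The OLIG2 peak at Dlx1 overlapped listed H3K27me3 peaks of NSCs and NFOs and no listed H3K4me3 peak. Both OLIG2 peaks at Dlx6 overlapped listed peaks in all 6 histone lists. At the distal site the H3K4me3 peak of NSCs measured 380 bp (fold enrichment 9.33), that of OPCs 225 bp (13.38) and that of NFOs 266 bp (7.66). At the proximal site the widths were 1302 bp (fold enrichment 7.28), 214 bp (7.65) and 253 bp (11.65), in the same order. The OLIG2 peak of the distal Dlx3 site overlapped a listed NSC H3K4me3 peak of 247 bp (5.79), and that of the proximal site overlapped no histone peak.

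Of the 5 OLIG2 windows printed above, 3 held CANNTG within 100 bases of the summit, beside 63.9% of all NFO OLIG2 peaks and 66.4% of those of OPCs. CAGCTG, a form of CANNTG, stood in the distal Dlx6 window and in 8.85% of NFO and 12.2% of OPC peaks. TAATTA stood in none of the 5, and in 5.21% of NFO peaks. Each of these motifs reads the same on both strands. A further feature of the windows was a run of a single base. The longest run of A or T was 23 bases at the distal and 13 at the proximal Dlx3 site and 16 at both Dlx6 sites, but 4 at Dlx1.

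Runs of this kind were common in the listed peaks as a whole. A run of at least 10 A or 10 T, a length chosen after the Dlx values were seen, stood within 100 bases of the summit in 65.6% of NFO and 67.0% of OPC OLIG2 peaks. It stood in 4.28% of consecutive 201-base windows of chromosomes 2, 6 and 11. In 501-base windows about the centre of the peak, such a run stood in 84.8% of NSC H3K4me3 peaks below 300 bp and 8.86% of those of at least 1 kb. The same shares were 51.9% and 7.15% for H3K4me3 in OPCs, and 71.2% and 22.1% in NFOs. For H3K27me3 they were 92.7% and 20.0% in NSCs, 74.8% and 19.9% in OPCs, and 36.6% and 13.7% in NFOs. The share of consecutive 501-base windows was 10.4%.

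At the Dlx genes, 19 of the 66 listed histone peaks within 2 kb of a TSS, in the genes or between them measured less than 300 bp. In the whole lists, 40.0%, 19.2% and 57.0% of H3K4me3 peaks were this narrow in NSCs, OPCs and NFOs. For H3K27me3 the shares were 32.3%, 48.0% and 34.9%. Of the 19 narrow peaks at the Dlx genes, 14 held a run of at least 10 A or 10 T inside or within 100 bp of the edge. Among them were all 3 narrow H3K4me3 peaks in OPCs and 5 of 6 in NFOs. The NFO peak at Dlx1, with a longest run of 6, was the exception. With peaks of at least 300 bp alone, H3K27me3 was listed at all 6 genes in each cell type, as given above. The part of these runs in the narrow peaks and in the OLIG2 peaks was not tested.

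**Figure D4:**
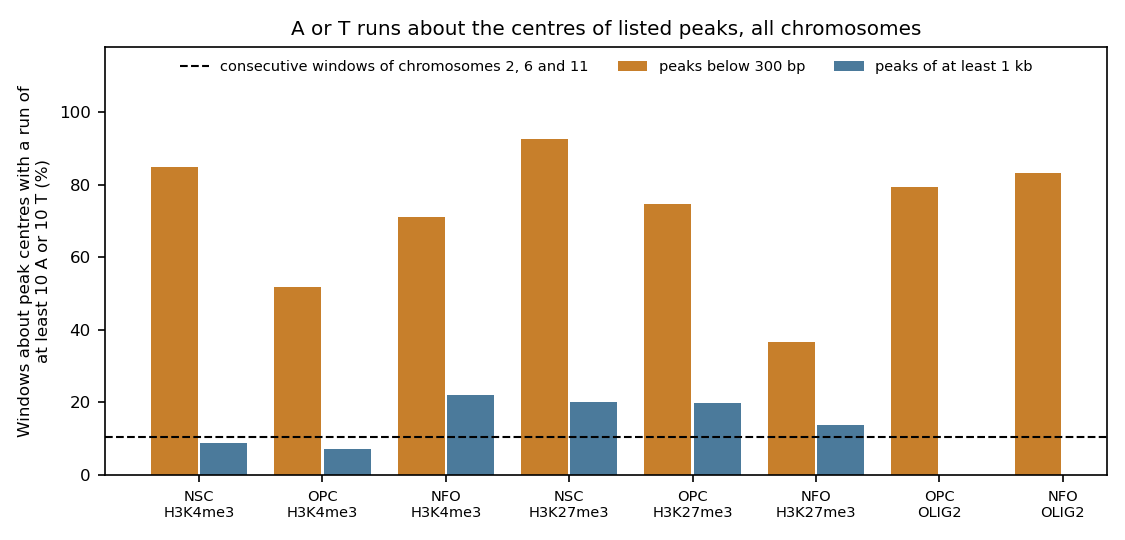
Share (%) of 501-base windows about the centre of listed peaks that hold a run of at least 10 A or 10 T, over all chromosomes, for peaks below 300 bp (orange) and of at least 1 kb (blue) in each list. The OLIG2 lists have no peak of 1 kb, and the dashed line, at 10.4%, is the share of consecutive windows. In every histone list the narrow peaks lie above the wide ones.

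In RIP-Seq, which sequences RNA bound by a protein, 0 of 101310 listed OLIG2 sites and 0 of 83195 listed IgG sites lay in a Dlx gene or in the overlapping RNA genes. The labels place these libraries in NFOs, while the Methods describe NSCs. The lists hold called sites only, so a transcript without a site may be unbound or not expressed.

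Genes that act around the Dlx genes were followed in lists. Beside them, H3K4me3 was listed near a TSS at 64.3%, 60.8% and 43.6% of all genes in NSCs, OPCs and NFOs. H3K27me3 was listed at 15.1%, 16.4% and 9.58%. No list was tested against these shares. Among 9 upstream regulators of the ganglionic eminence, H3K27me3 was listed near a TSS at 8, 7 and 6 in the order NSC, OPC and NFO, and H3K4me3 at 8, 9 and 8. Gbx1 and Lhx2 were among those with H3K27me3 in NFOs. Among 19 interneuron factors that act with or after Dlx genes, H3K27me3 was listed at 13, 13 and 9, and H3K4me3 at 19, 19 and 16. Isl1 and Lhx6 were among those with H3K27me3 in NFOs, and Etv1 had none in any cell type.

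Among 15 genes of GABA neurons, H3K27me3 was listed at 7, 8 and 7 and H3K4me3 at 10, 10 and 4, beside the same shares. Gad2, which makes GABA, Npy, a neuropeptide, and Nrp1, a guidance receptor, had H3K27me3 in NFOs and no H3K4me3, and Calb1 had H3K4me3 without H3K27me3. Among 14 genes of cortical projection neurons, H3K27me3 was listed at 13, 14 and 14, and H3K4me3 at 13, 8 and 5. Bcl11b, Bhlhe22 and Emx1 were among those with H3K27me3 in all 3 cell types.

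Genes of the cell types themselves were followed as well, beside the same shares of all genes. Among 14 oligodendrocyte lineage genes H3K27me3 was listed at 2 in NSCs, Sox10 and Zfp488, and at 0 in OPCs and NFOs, and H3K4me3 at 10, 11 and 8. Pdgfra, Olig1 and Olig2 had H3K4me3 in all 3 cell types. In NFOs H3K4me3 was listed at Cnp, a myelin gene, and at none of Mag, Mog and Mbp, which are also myelin genes. Gpr17, a receptor of cells that begin to differentiate, had H3K4me3 in OPCs and NFOs and not in NSCs, and Cspg4, a marker of OPCs, had it in NSCs and OPCs and not in NFOs. Among 9 neural stem cell genes H3K4me3 was listed at 9, 9 and 6, and H3K27me3 at 1, 3 and 1. Of 6 microglial genes, 0, 1 and 0 had H3K4me3.

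**Figure D5:**
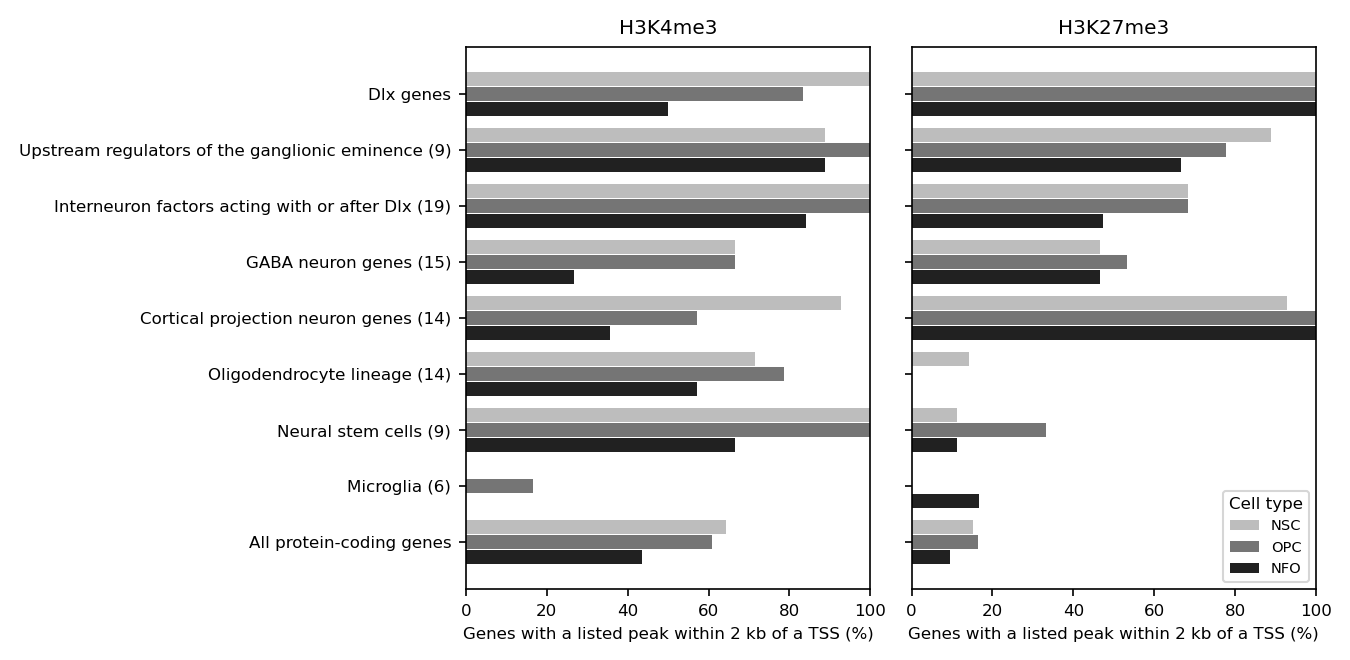
Share (%) of genes with a listed H3K4me3 (left) or H3K27me3 (right) peak within 2 kb of a TSS, by gene list, with the number of genes in parentheses, and by cell type. H3K27me3 is listed at all 6 Dlx genes in each cell type and at 13 or 14 of 14 projection neuron genes. In NSCs, OPCs and NFOs it is listed at 2, 0 and 0 of 14 oligodendrocyte genes and 1, 3 and 1 of 9 stem cell genes. The shares of all genes are 15.1%, 16.4% and 9.58% for H3K27me3, and 64.3%, 60.8% and 43.6% for H3K4me3.

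The genes most like each Dlx gene were found by the Euclidean distance between fractions of bases covered within 5 kb of the TSS in the 6 histone libraries, with 0 for equal patterns. The closest to Dlx1 was Gata2 (0.137), to Dlx2 Gad2 (0.193), to Dlx3 Gdf7 (0.083), to Dlx4 Foxb2 (0.069), to Dlx5 Dmrt1 (0.200) and to Dlx6 Hoxd10 (0.119). Next came Hhex and Osr2 for Dlx1, Gjc1 and Spag6 for Dlx2, and Wnt1 and Comp for Dlx3. Dlx4 was followed by Gfi1 and Sox14, Dlx5 by Tmem30b and Ptf1a, and Dlx6 by Gata6 and Ebf2. Within the family the distances ran from 0.295, between Dlx4 and Dlx6, to 0.979, between Dlx3 and Dlx6. Paired genes lay at 0.411 (Dlx1 and Dlx2), 0.765 (Dlx3 and Dlx4) and 0.888 (Dlx5 and Dlx6). The closest genes were picked from all protein-coding genes outside the family, whereas the partner is a single gene. A gene closer than the partner was therefore likely to be found in any case. How many genes lay closer than the partner was not counted.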

How the data were processed

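Peak lists of 8 ChIP-Seq libraries (6 for histone marks and 2 for OLIG2) and RIP-Seq site lists of 2 libraries were used, each with 1 library per group, and input DNA was not used here. Groups came from the sample titles, because the antibody label of all 6 histone libraries names the other mark. The authors mapped ChIP reads to mm10 with Bowtie2, kept unique reads, ran SPP for OLIG2 and the broad mode of MACS2 for histone marks, and removed blacklisted regions. The OLIG2 libraries were made with the True MicroChIP and DNA SMART ChIP-Seq kits. The deposited lists give each peak's fold enrichment over control, a ratio, with the −log10 p or FDR of the authors' caller, and the RIP-Seq lists of the authors give ASPeak sites with tag counts and the RPKM of the transcript. Read depth is not given. All listed peaks were used, also those below the filter of the study. Fold enrichments were not compared between stages as amounts.

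Genes and TSSs came from GENCODE M21. Peaks within 2 kb of any TSS, in genes and between them were counted, and a bivalent gene needed an overlap of 1 bp. No test was run. Counts of Dlx genes stand beside the share of 21911 genes, on which Clopper-Pearson 95% intervals were computed. Among the alternatives, such shares were computed for the histone filter of the study, its definition of a bivalent gene and peaks of at least 300 bp. The other alternatives had none. The members and lists were chosen with earlier results of these data known. Named genes were the members, overlapping RNA genes, the 3 nearest in pattern, and for each list the alphabetically leading 3 with the mark described and the leading gene without it, of which some are not reported here. Pdgfra, Olig1, Olig2, Cnp, Cspg4, Gpr17, Mag, Mog and Mbp were named after their values were seen, as a check of the cell types. The code recovered 400 of 400 simulated gene states. Alternatives were other filters, distances, overlaps and motif windows, and peaks of at least 300 bp alone. Sequences were read with pysam 0.24.0, intervals computed with SciPy 1.17.1, and figures drawn with Matplotlib 3.10.9, under Python 3.11.15 with pandas 2.3.3 and NumPy 2.4.6.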

Additional observations from a re-analysis of the deposited data

How the results depend on the processing

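No paired analysis was possible because each group had 1 library and no result came from a test. Of 89 alternative values, 58 stayed near the reported one and 31 moved, where near means within 1.5 times for a count, so that 6 against 4 is near, and within the exact binomial 95% interval over bases for a coverage, a narrower limit. With a fold enrichment above 5, H3K4me3 was listed at 3, 1 and 1 Dlx genes in NSCs, OPCs and NFOs, H3K27me3 at 2, 4 and 3, and both at 1 in each cell type. Within 1 kb of a TSS, NFOs had 1 gene with H3K4me3 and 1 bivalent gene, and so they did with peaks of at least 300 bp, a limit added after seeing the data. Shares of all genes were not computed above a fold enrichment of 5 or within 1 kb. Whether the Dlx counts fell more than those of all genes at these settings is therefore not known. The definition of the study left 2 bivalent genes in OPCs. Over the 3 gene pairs, H3K4me3 covered 14.9% of bases in NSCs, 4.88% in OPCs and 3.17% in NFOs. With the filter of the study it was 13.0% in NSCs and 2.06% in NFOs, above a fold enrichment of 5 10.8%, 0.718% and 1.15%, and with peaks of at least 300 bp 12.9%, 3.81% and 1.11%. H3K27me3 covered 70.5%, 69.6% and 67.6% of bases. With the filter of the study it was 62.4% in NSCs and 68.6% in OPCs, above 5 it was 30.7%, 51.7% and 39.3%, and with peaks of at least 300 bp 70.1% in NSCs and 68.3% in OPCs. The NFO OLIG2 peaks numbered 1 with a fold enrichment above 10 and 2 within the gene and 5 kb upstream, and CAGCTG stood in 0 windows of 50 bases on either side of the summit. The depth behind the lists is unknown, so a peak that is not listed may have been missed.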

Other observations

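The same peak edges recurred between lists. At least 1 edge was shared to the base with a peak of another list in 15.9% of OPC and 16.9% of NFO H3K4me3 peaks, in 7.54% of OPC and 13.1% of NFO H3K27me3 peaks, and in 0.415% and 0.252% of NSC H3K4me3 and H3K27me3 peaks. At the Dlx genes, 9 of the 66 listed histone peaks shared an edge. Between Dlx6 and Dlx5 the narrow H3K4me3 peaks of OPCs and NFOs both began at chr6:6875670, and at the end of Dlx5 both began at chr6:6877972. At Dlx1 the NFO H3K4me3 peak of 172 bp and the NFO H3K27me3 peak of 7682 bp both began at chr2:71532678, and at Dlx3 an OPC and an NFO H3K27me3 peak both ended at chr11:95124970.

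Pax6, a factor of cortical progenitors, had H3K4me3 and no H3K27me3 near a TSS in NSCs, and both marks in OPCs and NFOs, which is not the course of any Dlx gene. Bases about its 5′ end were covered by H3K27me3 to 100% in OPCs and 90.8% in NFOs. H3K4me3 covered 0.0% of these bases in each cell type, so its H3K4me3 calls came from other TSSs of Pax6. Pax6 was singled out after its values were seen.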
